A study of Mus musculus with 6 samples.

Results

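The 6 genes described here encode transcription factors that T cells switch on soon after antigen receptor signalling, and they were read in T cells sorted from an experimental mouse brain tumour. They are Nr4a1, Nr4a2 and Nr4a3 of the NR4A family, and Egr1, Egr2 and Egr3 of the EGR family. They were taken by name, and all 6 of them were found among the 32285 genes of both expression matrices. The mice were wild-type C57BL/6J animals of 6 to 8 weeks that carried CT2A, a mouse glioma cell line, inside the brain. Infiltrating CD3+CD4+ or CD3+CD8+ cells were sorted from the tumours of 16 mice at day 13, in pools of 4 mice, and from those of 4 mice at day 19. No group was treated and no tumour-free group was analysed here, so the comparisons lie between the days and between kinds of T cell within a day. The mouse ages, genotype and tumour line were common to both days, and the day, its capture and its pooling of mice cannot be told apart.

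Each day had 1 gene expression sample, made with 10x droplet chemistry, and 4 tables of T cell receptor contigs. These are called contig sets 1 to 4 of their day below. The labels do not say whether the sets are separate animals or pools, and they share clones: of the expanded clonotypes in each set, 8.33% to 66.7% were also present elsewhere on that day. The sets are therefore shown as a spread and not as replicates. With 1 sample a day no p-value is given. Levels are counts of unique molecular identifiers (UMIs) of a gene summed over a group of barcodes and given as counts per 1000000 UMIs (CPM), and ratios are log2 ratios of such levels with an exact 95% Poisson interval. The intervals and all intervals on shares cover counting error only. A gene was called different where its ratio reached 2-fold and the summed groups held at least 100 of its UMIs together.

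Barcodes with at least 5000 gene UMIs and at most 10% of them mitochondrial were kept, 8878 at day 13 and 4667 at day 19, with median depths of 9500.5 and 11214 UMIs. T barcodes had a Cd3 UMI and a place in a contig set. They were put in the CD8 class where Cd8a or Cd8b1 was seen without Cd4, and in the CD4 class where Cd4 was seen without either. There were 2959 and 1800 CD8 T barcodes at days 13 and 19, and 796 and 794 CD4 T barcodes. Median depths were 7449 and 9846.5 UMIs in the CD8 class and 8470.5 and 10542.5 in the CD4 class. The regulatory T cell gene Foxp3 stood at 133 and 151 CPM in the CD4 class against 9.31 and 8.90 in the CD8 class. RNA of myeloid cells lay in both: C1qa, a complement gene of macrophages and microglia, stood at 285 and 479 CPM in the CD8 class and at 984 and 1445 in the CD4 class. Barcodes in which 8 myeloid genes made up 0.1% or more of the UMIs were 14.6% and 23.6% of CD8 T barcodes and 49.6% and 61.3% of CD4 T barcodes, so results are also given over barcodes under 0.1% where that moved a call. Between the days 62 barcode sequences were kept in both matrices, and a further 3229 and 1109 barcodes with a Cd3 UMI, of median depth 15447 and 23556 UMIs, lay in no contig set and entered neither class.

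NR4A proteins are nuclear receptors that bind DNA without a known physiological ligand; they are induced by calcium and NFAT signalling and are known for restraining effector genes and promoting dysfunction in T cells inside tumours. EGR proteins are zinc finger factors: Egr1 is a general immediate early gene downstream of MAP kinase signalling, while Egr2 and Egr3 follow NFAT and are known for limiting activation and supporting anergy. Since many of the same genes are also switched on by tissue dissociation in cells of all kinds, their levels in cells without T cell receptor RNA were read alongside.

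The NR4A genes share a feature in front of their start sites, which is why these windows are shown. RefSeq (GRCm38.p6, equivalent to the mm10 build of the files) gave a window for Nr4a1, Nr4a2 and Nr4a3 and 5 windows for alternative starts of Egr2; Egr1 and Egr3 had none in the table. The 250 bases before each NR4A start are given on the strand of the gene, chr15:101266596-101266845 (plus) for Nr4a1, chr2:57124004-57124253 (minus) for Nr4a2 and chr4:48045055-48045304 (plus) for Nr4a3. Capitals mark CGTCA or, on the other strand, TGACG, the core of the cAMP response element (CRE) bound by CREB and ATF factors.
Nr4a1: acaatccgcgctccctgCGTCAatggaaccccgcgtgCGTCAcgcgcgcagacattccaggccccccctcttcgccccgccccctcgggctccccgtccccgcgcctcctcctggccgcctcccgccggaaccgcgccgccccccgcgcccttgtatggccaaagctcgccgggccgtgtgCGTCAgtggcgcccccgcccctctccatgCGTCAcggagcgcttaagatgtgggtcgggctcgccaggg
Nr4a2: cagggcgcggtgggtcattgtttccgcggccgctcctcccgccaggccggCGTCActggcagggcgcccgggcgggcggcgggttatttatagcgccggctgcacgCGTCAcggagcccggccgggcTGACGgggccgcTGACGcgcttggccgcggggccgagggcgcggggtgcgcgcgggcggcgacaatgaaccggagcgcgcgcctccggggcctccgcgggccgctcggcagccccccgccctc
Nr4a3: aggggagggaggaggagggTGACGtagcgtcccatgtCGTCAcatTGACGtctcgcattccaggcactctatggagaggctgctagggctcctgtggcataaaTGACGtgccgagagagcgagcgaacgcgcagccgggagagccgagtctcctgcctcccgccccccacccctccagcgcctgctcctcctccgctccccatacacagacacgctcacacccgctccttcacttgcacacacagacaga
Each window held the core 4 times, between 40 and 233 bases before the start in Nr4a1, 111 and 200 in Nr4a2, and 147 and 231 in Nr4a3. Of 32851 RefSeq windows of the same length, 17.8% held it at least once and 45, or 0.137%, held it 4 times or more. The Egr2 windows held it 0 or 2 times, and 3.90% of all windows held it at least 2 times. The NR4A windows were 74.4%, 80.0% and 63.6% G or C, and the shares over all windows were not matched for that. The full palindrome TGACGTCA, which contains the core on both strands, was in none of the 3 windows and in 1.55% of all. The EGR site GCGNGGGCG, searched on both strands, occurred 1 time in Nr4a1, 1 time in Nr4a2 and not in Nr4a3, against 4.70% of all windows, and the NR4A site AAAGGTCA (the NGFI-B response element, 1.34% of windows) in none of them. The CArG box of serum response factor was in none of the NR4A windows and in 4 of the 5 Egr2 windows, some of which overlap, against 1.47% of all. These matches describe the letters of the windows; binding was not measured.

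Nr4a1 and Egr1 were lower at day 19 than at day 13 in both classes, and Nr4a2 was the reverse, but only Egr1 in CD4 T cells moved by more than 2-fold with its contig sets apart. In CD8 T barcodes Nr4a1 read 290, 277, 255 and 262 CPM in sets 1 to 4 of day 13 and 182, 228, 216 and 196 in those of day 19. All 4 later sets lay below all 4 earlier ones, and the summed levels were 269 and 212 CPM (log2 ratio -0.34, interval -0.39 to -0.29). Nr4a2, whose sets did overlap, read 152, 191, 134 and 173 CPM at day 13 and 157, 237, 245 and 157 at day 19, or 164 against 210 CPM in sum (0.35, 0.29 to 0.41). Its ratio was 0.19 without set 2 of day 19, the largest set of that day, and 0.49 without set 2 of day 13. Nr4a3 stood at 86.3 and 86.4 CPM on the 2 days (0.00, -0.09 to 0.09). Egr1 went from 195 to 134 CPM (-0.55, -0.62 to -0.48), with set 1 of day 19 at 228 CPM inside the day 13 range of 150 to 276. Over CD8 T barcodes under 0.1% myeloid RNA Egr1 stood at 126 and 97.3 CPM (-0.37). Egr2 and Egr3 were thinly counted in CD8 T cells, at 9.34 and 6.38 CPM and at 2.28 and 3.45 CPM. None of the 6 members was called between days in CD8 T barcodes, where 3.25% of 10638 genes were.

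In CD4 T barcodes 2 of 6 members were called between days, against 3.16% of 9426 genes. Egr1 fell from 1081, 984, 774 and 549 CPM in the day 13 sets to 506, 379, 219 and 355 in the day 19 sets. No day 19 set reached a day 13 set, and the summed levels were 843 and 355 CPM (log2 ratio -1.25, interval -1.30 to -1.19). Over barcodes under 0.1% myeloid RNA Egr1 stood at 723 and 223 CPM (-1.70, -1.82 to -1.57), where 2.9% of genes were called, while over barcodes of at least 10000 UMIs the ratio was -0.98. Free RNA, read from droplets of 10 to 100 gene UMIs, moved the same way for Egr1, from 621 to 347 CPM, and so did the dissociation-responsive gene Fos in CD4 T barcodes, from 2746 to 1457 CPM over all barcodes and from 1672 to 818 under 0.1% myeloid RNA; the part of either in the result was not tested. Egr3 rose from 3.44 to 7.40 CPM (1.10, 0.46 to 1.78) on 104 UMIs in all, its sets overlapped, and it was called in 5 of 19 alternatives. Nr4a1 stood at 631, 566, 541 and 530 CPM in the day 13 sets and at 426, 508, 493 and 396 at day 19, apart but short of 2-fold (563 against 470 CPM; -0.26, -0.32 to -0.20). Nr4a2 stood at 71.0 and 95.7 CPM (0.43, 0.28 to 0.58), Nr4a3 at 102 and 113 CPM, and Egr2 at 32.1 and 28.4 CPM.

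**Figure D1:**
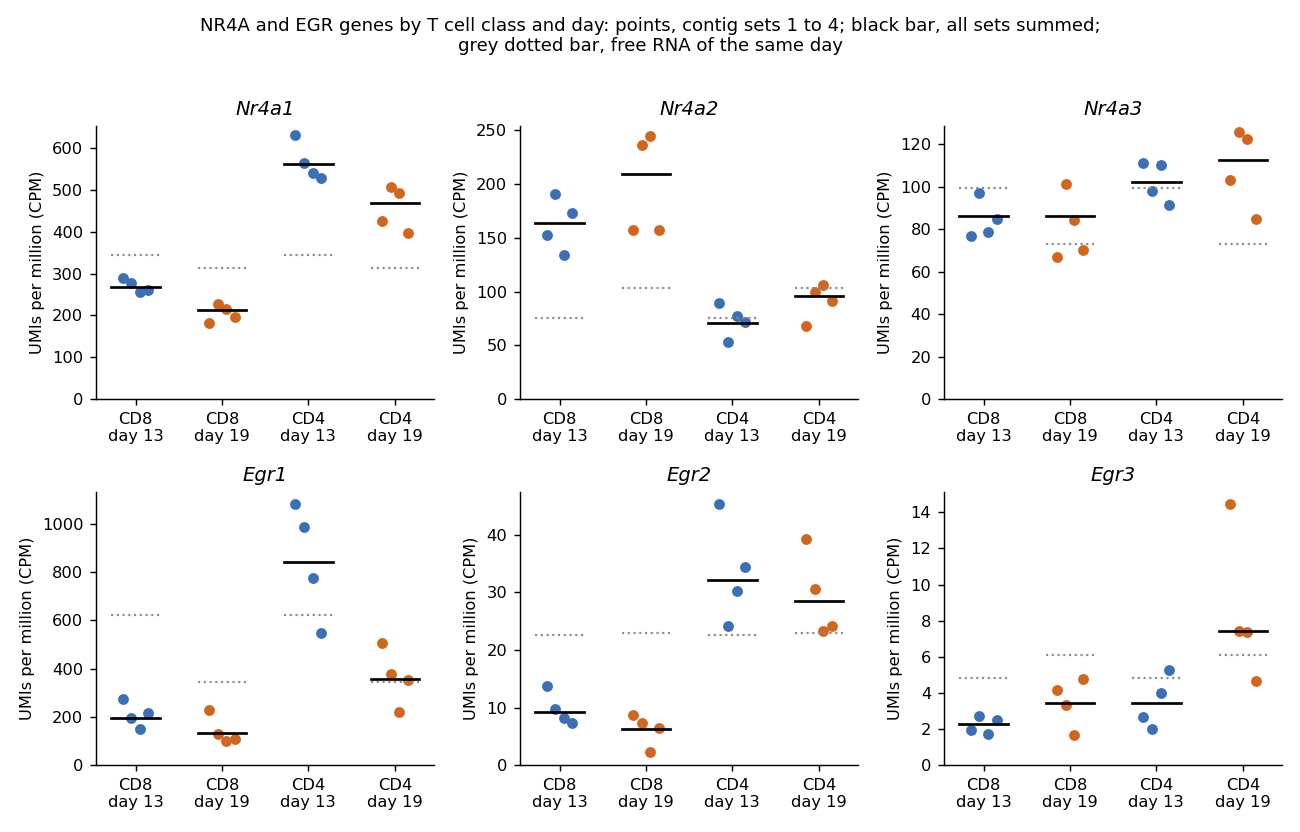
Level of each of the 6 members in CPM in CD8 and CD4 T barcodes by day. Points are contig sets 1 to 4, the black bar is the level over all barcodes of the class and the grey dotted line is free RNA. Nr4a2 lies higher in every CD8 set than in the CD4 set of the same number and day, while Nr4a1 and Egr1 lie lower.

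Between the classes the NR4A family split. CD8 T barcodes carried 184 CPM of Nr4a2 against 84.8 in CD4 T barcodes (log2 ratio 1.12, interval 1.04 to 1.19), and in 8 of 8 contig sets the CD8 level was the higher. Nr4a1 lay the other way, at 244 against 511 CPM (-1.06, -1.10 to -1.02), lower in CD8 in 8 of 8 sets. Nr4a3 leaned like Nr4a1 but stayed short of 2-fold, at 86.3 against 108 CPM (-0.33, -0.40 to -0.25). All EGR genes were lower in CD8 T barcodes. Egr1 stood at 169 against 571 CPM (-1.76, -1.80 to -1.72) and Egr2 at 8.07 against 30.1 CPM (-1.90, -2.09 to -1.71), both in 8 of 8 sets. For Egr3 the levels were 2.78 and 5.65 CPM (-1.02, -1.40 to -0.64), with 6 sets lower and 2 higher. So 5 of 6 members were called, 4 of them lower in CD8, in a comparison that called 14.0% of 11267 genes, 11.0% of them lower and 2.93% higher. In 21 alternatives Egr2 was called in 21, Nr4a2 and Egr1 in 20 each, Nr4a1 in 18 and Egr3 in 10.

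The class difference also held within each day: Nr4a2 had log2 ratios of 1.21 at day 13 and 1.13 at day 19, Nr4a1 -1.07 and -1.15, Egr1 -2.11 and -1.41, and Egr2 -1.78 and -2.16. Myeloid RNA moved with it, since all 8 genes of the myeloid list were called lower in CD8 T barcodes, with a median log2 ratio of -1.75. Over barcodes under 0.1% myeloid RNA none of the 7 myeloid genes tested was called (median -0.61). The limit was set on the sum of the listed myeloid genes, so that count does not show that myeloid RNA was gone. Under the limit Nr4a2 was at 1.21, Nr4a1 at -1.12, Egr1 at -2.07, Egr2 at -1.94 and Egr3, no longer called, at -0.71, and 8.61% of genes were called. With ratios centred on the median gene Nr4a1 was at -0.98 and Egr3 at -0.94, short of the threshold, and the other 3 calls stayed. Free RNA held 75.7 and 103 CPM of Nr4a2 on the 2 days, about the CD4 level and well under the CD8 level. Its 345 and 313 CPM of Nr4a1 lay between the classes, above CD8 and below CD4.

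Shares of cells with a UMI differed between the classes in the same direction as the levels. For these shares each barcode was thinned to 5000 UMIs so that depth did not enter. Nr4a1 was seen in 49.0% of CD8 and 64.8% of CD4 T barcodes (62.0% and 76.4% before thinning), and Nr4a2 in 46.5% and 26.7% (60.4% and 39.4%). Nr4a3 was seen in 27.9% and 30.9% (40.5% and 45.0%), and Egr1 in 34.3% and 51.6% (46.8% and 63.6%). Egr2 was rare, at 3.17% and 9.50% (5.48% and 16.1%), as was Egr3, at 1.22% and 2.45% (2.21% and 4.40%). No cell type in the data is known to lack these genes. For scale, 2 groups without Cd3 RNA are given, picked after their values were seen because a member was low in them. They gave 27.8% for Nr4a1, 6.7% for Nr4a2 and 5.6% for Nr4a3 (90 microglia-like barcodes, median depth 6485.5 UMIs), and 9.7% for Egr1 and 2.1% for Egr2 (145 mature dendritic-like barcodes, median depth 7944 UMIs). The Egr2 share of CD8 T barcodes was near the one given for Egr2. Shares of the NR4A genes and Egr1 lay above theirs, but groups picked for low values cannot set a limit for free RNA. Free RNA held 621 and 347 CPM of Egr1 on the 2 days, above the CD8 levels of 195 and 134. For Nr4a3 it held 99.3 and 72.9 CPM, near the CD8 levels of 86.3 and 86.4. The part of free RNA in the shares was not tested.

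Egr1 was spread more unevenly over CD8 T cells than the NR4A genes. In CD8 T barcodes the 1% with most Egr1 held 30.2% of its UMIs at day 13 and 25.3% at day 19, with up to 95 and 61 UMIs in 1 barcode. For Nr4a2 the top 1% held 9.75% and 7.27%, for Nr4a1 11.7% and 12.4%, and for Nr4a3 14.7% and 11.0%. The thinly counted Egr2 (41.4% and 44.5%) and Egr3 (72.3% and 47.3%) were more uneven still. Barcodes at or over 0.1% myeloid RNA held 48.6% and 47.9% of the Egr1 UMIs of the CD8 class and 22.9% and 25.2% of its Nr4a2 UMIs. Over CD8 T barcodes under that limit, a step chosen after seeing the data, the top 1% held 20.3% and 18.6% of Egr1, 9.51% and 7.76% of Nr4a2 and 11.4% and 11.8% of Nr4a1. In CD4 T barcodes the top 1% held 10.5% and 15.8% of Egr1 UMIs and 7.50% and 8.71% of Nr4a1 UMIs, below the CD8 shares on both days. For Nr4a3 it held 11.8% and 13.3%, and for Nr4a2 more than in CD8 on both days, with 9.27% at day 19.

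Egr1 and Egr2 were lower in CD4 T barcodes with Foxp3, short of 2-fold over all barcodes and past it over those low in myeloid RNA. The 415 CD4 T barcodes with a Foxp3 UMI had 380 CPM of Egr1 against 648 in those without (log2 ratio -0.77, interval -0.84 to -0.70), lower in 8 of 8 sets. Egr2 stood at 21.4 against 33.6 CPM (-0.65, -0.96 to -0.35), lower in 7 of 8 sets. Nr4a1 leaned the other way, at 563 against 490 CPM (0.20, 0.14 to 0.27), and Nr4a2 stood at 73.2 against 89.4 CPM. None of the 6 members was called, where 2.37% of 9426 genes were. Over barcodes under 0.1% myeloid RNA 2 members fell past 2-fold, against 4.58% of genes: Egr1 at 235 against 596 CPM (-1.34, -1.49 to -1.20) and Egr2 at 11.3 against 26.1 CPM (-1.20, -1.92 to -0.55). The lean of Nr4a1 turned there, to 428 against 505 CPM (-0.24, -0.36 to -0.13), so its direction between CD4 T barcodes with and without Foxp3 depended on which barcodes were kept. The days differed under the same limit. At day 13 none of the members was called, against 4.62% of genes, with Egr1 at -0.79 (lower in 3 of 4 sets), Nr4a3 at -0.03 and Nr4a2 at 0.16. At day 19, against 5.34% of genes, 3 members were called lower, each in 4 of 4 sets: Egr1 (-2.25), Nr4a3 (-1.31) and Nr4a2 (-1.01). The difference between the days was not tested. Immediate early and heat shock genes moved with Egr1 between CD4 T barcodes with and without Foxp3: 20 of 22 had a negative ratio over all barcodes (2 called lower, median -0.37) and 17 of 21 under 0.1% myeloid RNA (2 called lower, median -0.49), and their part in the result was not tested.

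Other T cell receptor induced genes went in both directions here. Of 19 tested, 3 were called higher in Foxp3 barcodes and 4 lower, with a median log2 ratio of -0.36 against 0.01 over all genes. Those called higher were Il2ra (1.95), Tnfrsf9 (1.63) and Tnfrsf4 (1.26), surface receptors of regulatory T cells. Those called lower were the cytokines Il2 (-4.80), Xcl1 (-4.19) and Ifng (-2.59) and the signalling inhibitor Spry1 (-1.11).

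Nr4a2 differed past 2-fold with the Tcf7 and Havcr2 state of CD8 T cells, and no other member was called between these states. PD-1 (Pdcd1) marks antigen-experienced cells, TCF-1 (Tcf7) marks naive, memory and progenitor exhausted cells, and TIM-3 (Havcr2) marks terminally exhausted cells; a state was read from the thinned UMIs, so an absent gene may have been missed at that depth. At day 13, Nr4a2 stood at 137 CPM in 1237 Pdcd1-negative Tcf7-positive barcodes and at 160 in 714 with neither gene. With Pdcd1, it stood at 154 CPM in 335 barcodes with Tcf7 and no Havcr2, at 177 in 516 with neither, and at 279 in 142 with Havcr2 and no Tcf7. The same order of states at day 19 gave 128, 164, 143, 273 and 354 CPM, from 538, 493, 111, 417 and 233 barcodes. The lowest level was in the Tcf7-positive states and the highest in the Havcr2-positive state on both days. A further 15 and 8 barcodes held Pdcd1, Tcf7 and Havcr2 together and were too few to place.

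**Figure D2:**
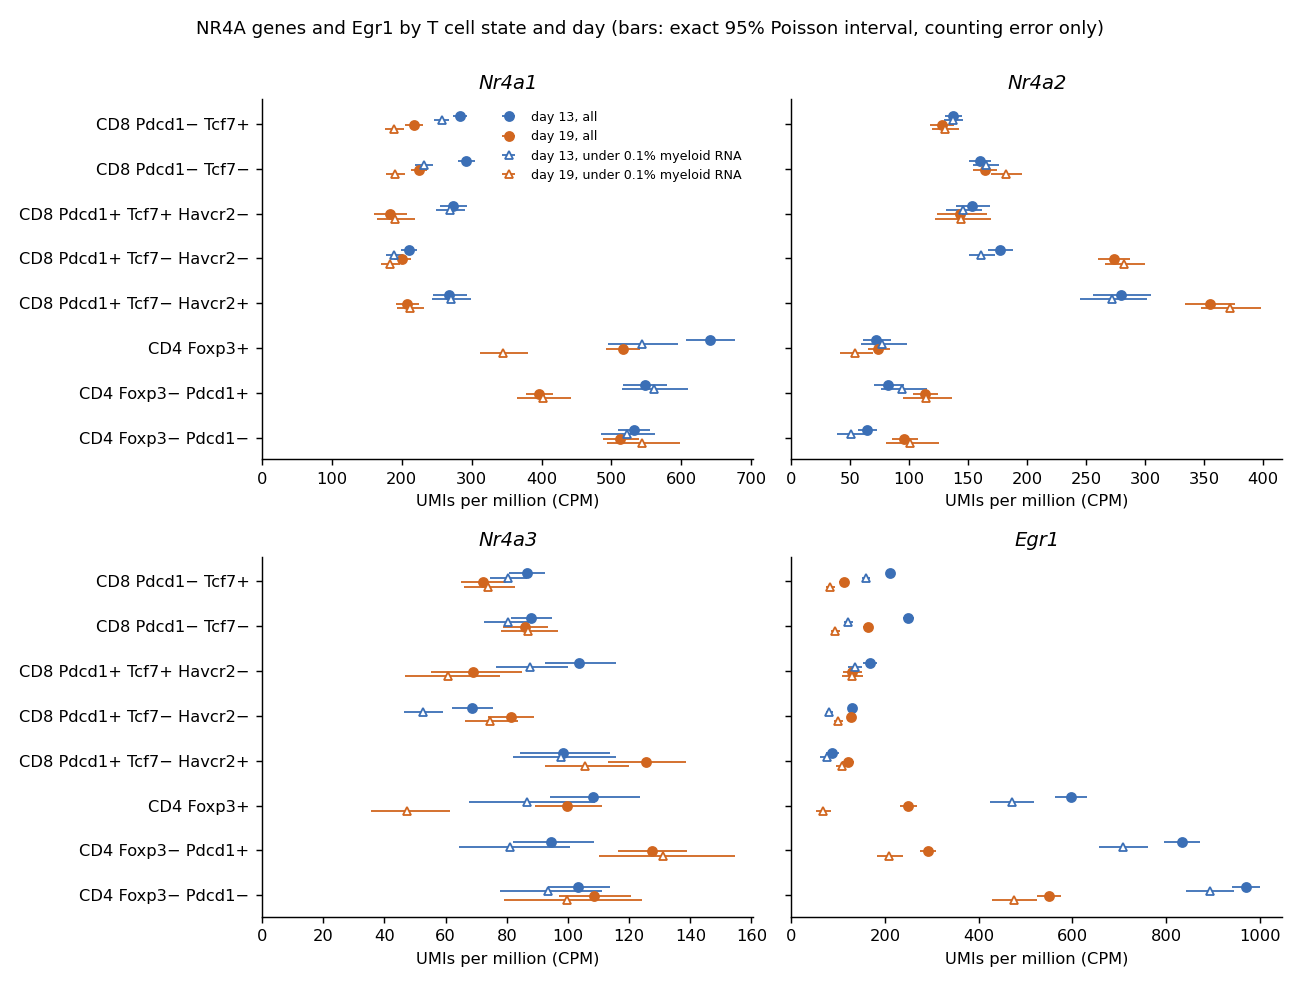
Levels of Nr4a1, Nr4a2, Nr4a3 and Egr1 in CPM over 5 CD8 and 3 CD4 states at day 13 (blue) and day 19 (orange), with 95% Poisson bars. Filled circles are all barcodes and open triangles those under 0.1% myeloid RNA; Nr4a2 climbs to 279 and 354 CPM in the Havcr2-positive state.

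Set against each other, Pdcd1 barcodes with Havcr2 and no Tcf7 (the Havcr2 state) had 326 CPM of Nr4a2 and those with Tcf7 and no Havcr2 (the Tcf7 state) had 151 CPM, a 2.17-fold difference (log2 ratio 1.12, interval 0.98 to 1.25). By set, the Havcr2 state read 271, 389, 176 and 304 CPM at day 13 and 297, 356, 514 and 181 at day 19. The Tcf7 state read 152, 180, 134 and 126 CPM and then 194, 143, 164 and 88.5. The Havcr2 state was the higher in 8 of 8 sets, although the 2 ranges overlap across sets. The ratio was 0.86 at day 13 and 1.31 at day 19, and the pooled ratio fell below 2-fold in some settings, down to 0.87 where the state genes were read without thinning; it was called in 18 of 22 alternatives. Nr4a1 did not separate the states, at 230 against 247 CPM (-0.10, -0.22 to 0.02). For Nr4a3 the levels were 115 and 93.4 CPM (0.30, 0.12 to 0.49), with 4 sets higher and 4 lower. Egr1 was at 108 against 156 CPM (-0.53, -0.69 to -0.36), lower in 6 of 8 sets, and Egr2 and Egr3 had under 100 UMIs. In this comparison 1 of 6 members was called, against 6.63% of 7434 genes.

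Over all CD8 T barcodes with against without a Pdcd1 UMI, Nr4a2 stood at 232 against 147 CPM (log2 ratio 0.66, interval 0.60 to 0.72), higher in 8 of 8 sets. Its ratio was 0.37 at day 13 and 0.92 at day 19. Egr1 was lower in Pdcd1 barcodes, 136 against 193 CPM (-0.50, -0.57 to -0.44), in 7 of 8 sets, and Nr4a1 stood at 222 against 261 CPM (-0.23). All 22 immediate early and heat shock genes had negative ratios there as well, 2 of them called lower (median -0.62 against 0.07 over all genes), and their part in the Egr1 difference was not tested. No member was called, where 5.25% of 10638 genes were.

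Within CD8 T cells, Nr4a2 was higher at day 19 in the Pdcd1-positive Tcf7-negative states. Between days its log2 ratio was 0.62 (0.51 to 0.74) in those without Havcr2 and 0.34 (0.19 to 0.50) in those with it, and between -0.11 and 0.04 in the other 3 CD8 states with more than 100 barcodes a day. The contig sets of the days overlapped in both: without Havcr2 they ran from 136 to 203 CPM at day 13 and from 177 to 325 at day 19, and with it from 176 to 389 and from 181 to 514. Those states, where Nr4a2 was highest, also made up more of the CD8 T barcodes, 22.2% (interval 20.8 to 23.8) at day 13 and 36.1% (33.9 to 38.4) at day 19. Egr1 behaved otherwise: its day ratio was -0.92 (-1.05 to -0.78) in Pdcd1-negative Tcf7-positive CD8 barcodes, 0.00 (-0.15 to 0.14) in Pdcd1-positive barcodes with neither Tcf7 nor Havcr2, and 0.46 (0.19 to 0.74) in the Havcr2-positive state. In CD4 T barcodes Egr1 was lower at day 19 in all 3 states, from 596 to 250 CPM with Foxp3 (-1.25), from 833 to 292 with Pdcd1 and no Foxp3 (-1.51), and from 970 to 550 with neither (-0.82).

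The lists of related genes show what changed beside Nr4a2 between the Tcf7 and Havcr2 states. Of 19 T cell receptor induced genes tested, 5 were called higher and 3 lower, with a median log2 ratio of 0.12 against 0.01 over all genes. The costimulatory receptor gene Tnfrsf9 (2.03), the chemokine genes Ccl3 (1.82) and Ccl4 (1.79), Il2ra (1.52) and Ifng (1.18) were the higher. Crtam (-2.05), Xcl1 (-1.53) and Cd69 (-1.04) were the lower. Of the partners of the 2 families, Nab2, a corepressor that binds EGR proteins, was called higher at 55.8 against 25.3 CPM (1.14), and of the anergy and brake genes Ubash3b (1.28) was called higher and Dgka (-1.34) lower. All 7 exhaustion genes tested had positive ratios and 5 were called (median 1.57), a list that includes Havcr2, which chose the groups. No immediate early or heat shock gene was called higher and 1 of 21 was called lower, with a median of -0.31. All 8 myeloid genes had positive ratios, 1 of them called higher (median 0.40). Over barcodes under 0.1% myeloid RNA Nr4a2 was 2.30-fold higher in the Havcr2 state. Neither of the 2 myeloid genes tested there was called (median -0.04), but the limit was set on the sum of the listed myeloid genes.

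**Figure D3:**
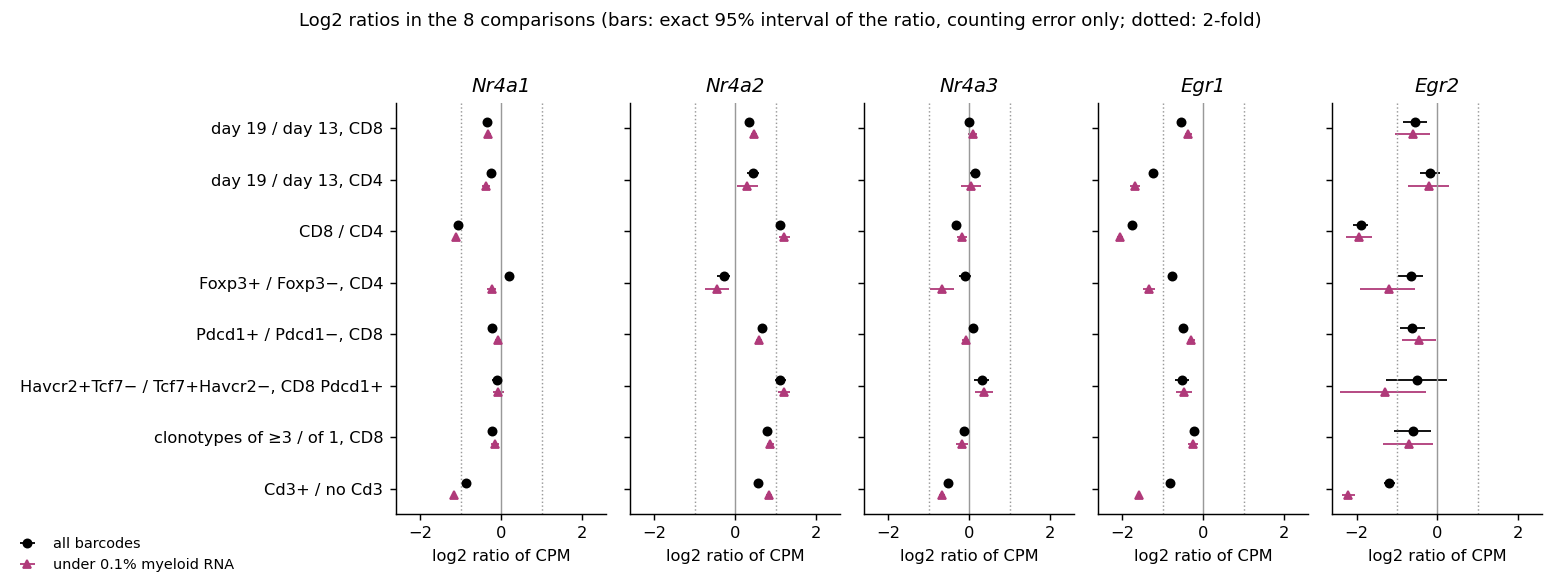
Log2 ratio with its 95% Poisson interval for 5 members in 8 comparisons, over all barcodes and over T barcodes under 0.1% myeloid RNA. Dotted lines mark 2-fold; Nr4a2 lies to the right of 0 in the class, CD8 state and clone comparisons over all barcodes, where Egr1 lies to the left.

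Nr4a2 was higher in larger CD8 clonotypes on both days, short of 2-fold over the days together. A clonotype was counted from barcodes with 1 TRA and 1 TRB chain. In CD8 T barcodes of day 13, Nr4a2 stood at 147 CPM in clonotypes of 1 barcode, 187 in those of 2, 204 in those of 3 to 9 and 232 in those of 10 or more, over 1486, 131, 266 and 252 barcodes. At day 19 the same sizes gave 146, 206, 242 and 356 CPM over 759, 78, 164 and 178 barcodes. Clonotypes of 1 barcode were at the same level on both days (log2 ratio -0.01, interval -0.12 to 0.09), and those of 10 or more differed (0.62, 0.47 to 0.77).

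For clonotypes of 3 or more against 1, Nr4a2 was at 253 against 147 CPM (log2 ratio 0.79, interval 0.71 to 0.86), higher in 8 of 8 sets. The ratio was 0.56 at day 13 and 1.05 at day 19, and 0.62 over both days without the largest clonotype of each set. Without the largest clonotype of the day, a step chosen after seeing the data, it was 0.50 and 0.97. Nr4a1 stood at 207 against 245 CPM (-0.24), Nr4a3 at 78.3 against 85.1 CPM (-0.12) and Egr1 at 135 against 157 CPM (-0.22). For Egr1 and Nr4a3 these sums join unlike days. Egr1 was at -0.51 (-0.63 to -0.39, lower in 4 of 4 sets) at day 13 and at 0.30 (0.15 to 0.44, higher in 2 of 4) at day 19, and Nr4a3 at -0.39 and 0.26, or -0.33 and 0.02 without the largest clonotype of the day. Nr4a1 was at -0.34 and -0.04, and at -0.31 and -0.24 without that clonotype. None of the 6 members was called, where 6.26% of 9987 genes were; Egr3 (-1.18) had 96 UMIs. Of 21 T cell receptor induced genes 7 were called higher in expanded clonotypes and 2 lower (median 0.59 against 0.09 over all genes), led by Ifng (1.44), Spry1 (1.41) and Tnfrsf9 (1.40) and, on the lower side, Xcl1 (-1.62) and Myc (-1.10).

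**Figure D4:**
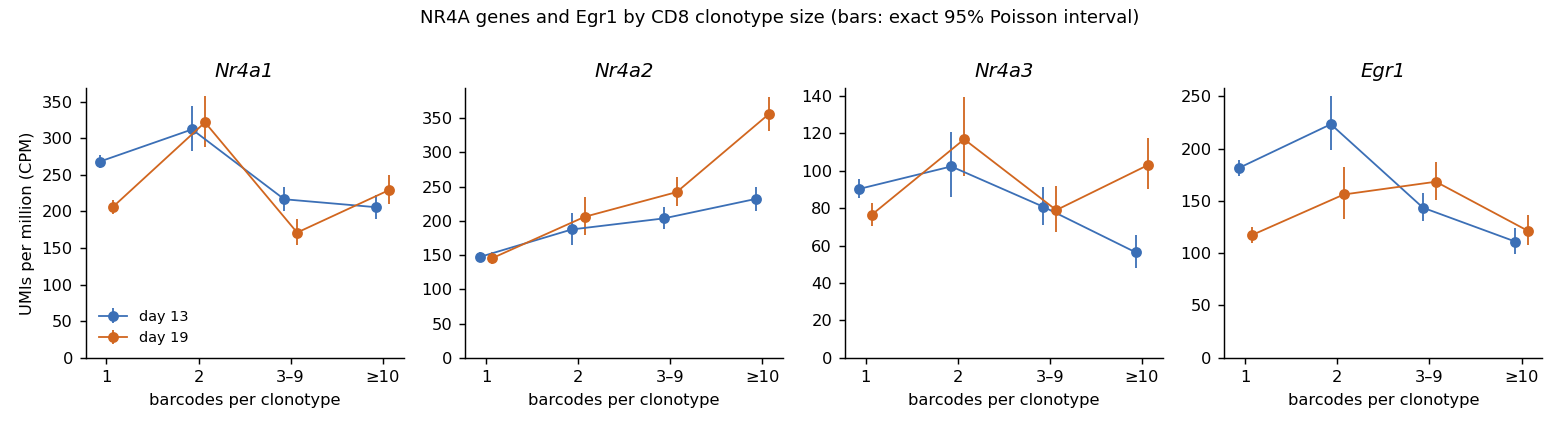
Levels of Nr4a1, Nr4a2, Nr4a3 and Egr1 in CPM in CD8 T barcodes by clonotype size at day 13 (blue) and day 19 (orange), with 95% Poisson bars. Nr4a2 goes from 147 to 232 CPM at day 13 and from 146 to 356 CPM at day 19, while Nr4a3 in clonotypes of 10 or more is 56.4 CPM at day 13 and 103 at day 19.

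Clone size and state overlap, so Nr4a2 was also read within states. In Pdcd1-negative Tcf7-negative barcodes it stood at 213 CPM in clonotypes of 3 or more against 143 in those of 1 (log2 ratio 0.57, interval 0.41 to 0.74). In the Havcr2-positive state the levels were 354 and 249 CPM (0.51, 0.25 to 0.76), and in Pdcd1-positive barcodes with neither Tcf7 nor Havcr2 they were 243 and 191 CPM (0.35, 0.20 to 0.50). In the Tcf7 state they were 153 and 152 CPM (0.01, -0.34 to 0.34). The 5 CD8 clonotypes of 10 or more barcodes at day 19 ranged from 223 to 400 CPM of Nr4a2 with a median of 374, each above the level of single clonotypes. The 14 at day 13 ranged from 94.9 to 785 CPM with a median of 185, and 10 lay above it.

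In the pairs given here a member was seen more often in barcodes in which the other was seen. All barcodes of each class entered, whatever their myeloid RNA. In thinned CD8 T barcodes of day 13, Nr4a3 was seen in 34.6% (interval 32.2 to 37.1) of those with Nr4a1 and in 20.1% (18.1 to 22.3) of those without. At day 19 the shares were 37.6% and 20.7%. Nr4a2 was seen in 49.2% and 39.9% of CD8 T barcodes with and without Nr4a1 at day 13, and in 57.5% and 42.9% at day 19. In CD4 T barcodes the Nr4a3 shares were 36.9% and 15.3% at day 13, and those of Egr2 with and without Egr1 were 13.6% (10.6 to 17.0) and 3.1% (1.5 to 5.6). Of CD8 T barcodes 18.5% and 18.1% showed no member on the 2 days and 22.1% and 23.4% showed 3 or more. These exact binomial intervals treat barcodes as independent, which cells of a shared clone and sample are not.

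Other genes were read in the same way in CD8 T barcodes under 0.1% myeloid RNA, thinned, with against without a UMI of a member. Beside Nr4a1 (1870 barcodes with, 2034 without), 0.204% of 8818 genes were at least 2-fold higher. The leading genes were Foxp3 (log2 ratio 2.42), Il1b (1.73), Cd40lg (1.63), Ccr8 (1.46), Anxa1 (1.34), Cd83 (1.21), Nr4a3 (1.18) and Egr2 (1.18). Several of these, Foxp3, Cd40lg and Ccr8, are typical of CD4 T cells. Foxp3 was low in either group, at 12.1 and 2.26 CPM, and the part of CD4 cells with a stray CD8 UMI was not tested.

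Beside Egr1 (1291 with, 2613 without) 3 genes, or 0.034%, were at least 2-fold higher, not all of them named here. The ranks of named genes left out receptor and immunoglobulin segments, ribosomal, mitochondrial, Gm, Rik and Y-linked genes, Xist and Tsix. Egr2 led (1.40), then Cd40lg (1.08) and, short of 2-fold, Ly6d (0.88), Zbtb10 (0.84), Ccl4 (0.83), Ccr8 (0.81), Fam83d (0.79) and Nfkbid (0.76). Beside Egr2 (102 with, 3802 without) the share was 1.38%, led by Cd40lg (2.47), Tnfsf14 (2.38), Anxa1 (1.76), Apobr (1.69), Slc41a1 (1.67), Zswim4 (1.67), Abca3 (1.65) and Egr1 (1.60). Egr1 and Egr2 thus each stood among the genes leading beside the other.

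As a group, the T cell receptor induced genes leaned to barcodes in which a member was seen: 19 of 20 had a positive ratio beside Nr4a1, 19 of 20 beside Nr4a2, 20 of 20 beside Nr4a3 and 17 of 20 beside Egr1, where 51.4%, 57.2%, 46.4% and 49.5% of all genes did. Exhaustion genes parted the members. Their median log2 ratio was 0.73 beside Nr4a2, with 7 of 7 positive, but 0.00 beside Nr4a1, 0.19 beside Nr4a3, -0.02 beside Egr1 and -0.28 beside Egr2. Immediate early and heat shock genes had positive ratios in 16 of 21 beside Nr4a1, 15 of 21 beside Nr4a2, 15 of 21 beside Nr4a3 and 20 of 21 beside Egr1, with medians of 0.30, 0.13, 0.20 and 0.31.

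Barcodes without Cd3 RNA had more Egr2 than Cd3 barcodes, and Nr4a1 and Egr1 were higher there too but short of 2-fold over all barcodes. There were 1017 and 343 such barcodes, with no TRB contig, at days 13 and 19; Lyz2, a lysozyme gene of myeloid cells, stood at 5670 and 4544 CPM in them. The Cd3 side holds the 4338 barcodes in no contig set, of median myeloid RNA 0.68%. Barcodes with a Cd3 UMI had 361 CPM of Nr4a1 against 665 without (log2 ratio -0.88), 352 against 628 of Egr1 (-0.83) and 98.2 against 140 of Nr4a3 (-0.52). Egr2, at 17.6 against 40.0 CPM (-1.19, interval -1.32 to -1.05), was the 1 member of 6 called, where 29.5% of 13003 genes were. Nr4a2 alone of the NR4A genes leaned to Cd3 barcodes, 137 against 92.5 CPM (0.56, 0.48 to 0.65). Not all Cd3 barcodes shared that lean. CD8 T barcodes stood at 184 CPM and Cd3 barcodes in no contig set at 125, but CD4 T barcodes at 84.8, below the barcodes without Cd3. The median gene in this comparison was at 0.17, and centred on it Nr4a1 (-1.05) and Egr1 (-1.01) were called as well, with Nr4a2 at 0.39. Which barcodes were kept moved the other values too. With Cd3 barcodes in a contig set only, Nr4a1 was at -0.93, Egr2 at -1.34 and Egr1 just short of the threshold. With Cd3 barcodes under 0.2% myeloid RNA, Nr4a1 was at -1.09, Egr1 at -1.54 and Egr2 at -2.11. Over barcodes of at least 10000 UMIs Egr1 was at -0.23.

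Those barcodes were a mixture, and the members were highest in different groups of it: Egr1 and Egr2 in the microglia-like, Nr4a3 in the mature dendritic-like, Nr4a1 in the type 2 dendritic-like and Nr4a2 in the NK-like group. Egr3, with 49 UMIs in all, could not be placed. Groups were named "X-like" where a barcode held at least 3 of 6 markers of a type and more than of any other type; 352 stayed unnamed. Egr1 peaked in 90 microglia-like barcodes, at 5530 CPM at day 13 and 4147 at day 19, against 647 CPM in 197 macrophage-like barcodes over both days and 62.3 in 145 mature dendritic-like barcodes. Nr4a3 peaked in the mature dendritic-like group, at 647 and 656 CPM on the 2 days, against 11.6 CPM in the microglia-like group. Both peaks were present on both days, although the day 19 groups held only 17 microglia-like and 27 mature dendritic-like barcodes.

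Nr4a1 was highest in 69 type 2 dendritic-like barcodes, at 1242 CPM, with 969 in 37 type 1 dendritic-like and 901 in 391 monocyte-like barcodes, and lowest in the mature dendritic-like group at 153. Nr4a2 was highest in 39 NK-like barcodes, at 384 CPM at day 13 and 256 at day 19, and it stood at 18.8 CPM in the microglia-like group. Egr2 was at 132 CPM in the microglia-like group and at 4.7 in the mature dendritic-like one. Groups of under 40 barcodes give rough levels, and the 7 B-like barcodes are not described.

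**Figure D5:**
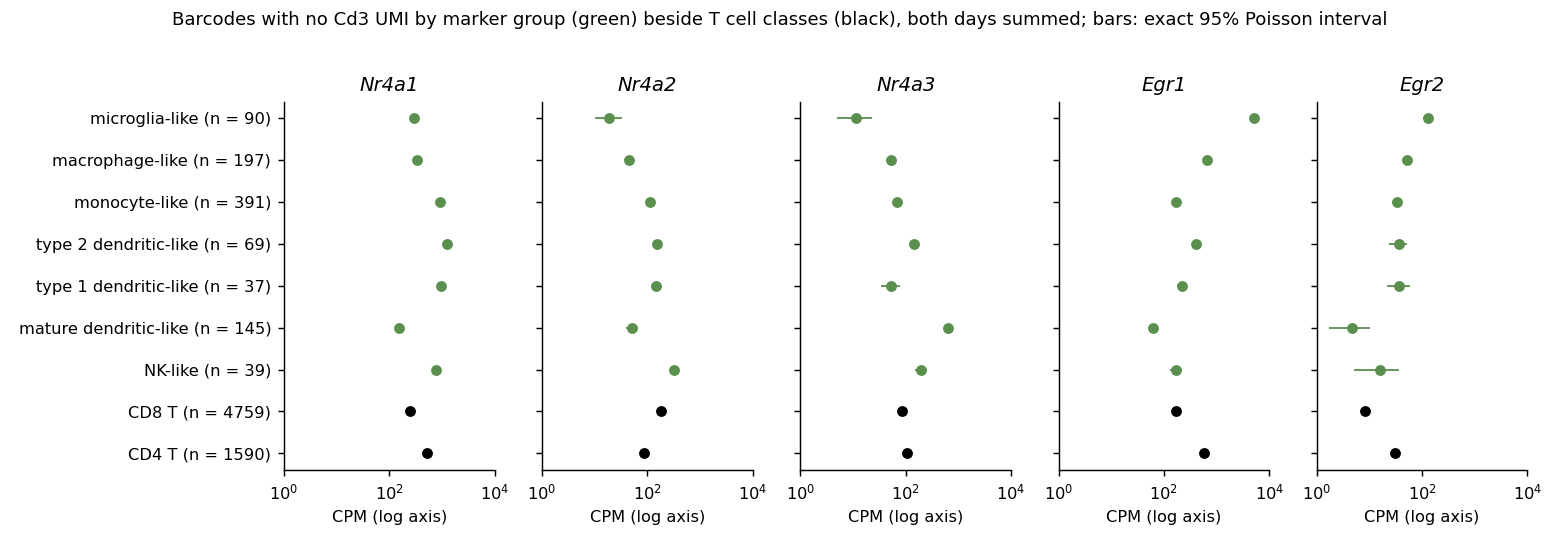
Levels of 5 members in CPM, on a log axis, in 7 groups of barcodes without Cd3 RNA and in CD8 and CD4 T barcodes, with both days summed. Egr1 peaks in the microglia-like group and Nr4a3 in the mature dendritic-like group; Nr4a2 is highest in the NK-like group and in CD8 T barcodes.

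The immediate early genes among the dissociation-responsive list, like Egr1, were higher in CD4 than in CD8 T barcodes and highest in the microglia-like group, but the orders were not the same: the mature dendritic-like group, with the least Egr1, had 16707 CPM of them over both days, above CD8 (9594) and CD4 T barcodes (15041). The summed level of 16 immediate early genes (Fos, Jun and the like, without members) was 10817 and 7972 CPM in CD8 T barcodes at days 13 and 19, 18773 and 12086 in CD4 T barcodes, 22032 and 17887 in barcodes without Cd3 and 65460 and 40234 in microglia-like barcodes. In free RNA it was 16673 and 11891 CPM. Within CD8 T cells its ends were opposite to those of Nr4a2, going from 12939 and 9482 CPM in Pdcd1-negative Tcf7-positive barcodes to 7437 and 6372 in the Havcr2-positive state. The states between did not all follow: from Pdcd1-negative Tcf7-negative barcodes to the Tcf7 state both this sum (11937 to 9517 CPM at day 13, 8728 to 7370 at day 19) and Nr4a2 were lower. The 6 heat shock genes were flatter, at 4344 and 3769 CPM in CD8 and 4586 and 3745 in CD4 T barcodes. Of the 22 genes of this list, 19 had a negative day ratio in CD8 T barcodes and 21 in CD4 T barcodes, with median log2 ratios of -0.41 and -0.65 against -0.04 and 0.02 over all genes. No sample was prepared without dissociation, so the part of handling in the levels of Egr1, Nr4a1 and the other members was not tested.

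Across 18 groups of T barcodes, each a state on a day, the members fell into opposing patterns. These correlations of log2(CPM + 1) are descriptions, since the groups share libraries, free RNA and depth. Nr4a1 ran with Egr1 (Pearson r 0.75) and against Nr4a2 (-0.66); Egr1 ran with Egr2 (0.73). The genes most like Nr4a2 among 8215 ranked were Sult2b1 (0.95), Selenoi (0.91), Ptpn12 (0.91), Sh2d2a (0.90) and Rcn1 (0.89). Most like Egr1 were Laptm4a (0.96), Btg2 (0.95), Ankle2 (0.95), Fos (0.94) and Glul (0.93). Xylt1 (0.97), Ncoa3, Npc2, Fcho2 and Epb41l2 were most like Nr4a1, and Specc1 (0.89), Golga4, Tmem42, Syap1 and Fech most like Nr4a3. For the thinly counted Egr2 and Egr3 the lists were Wdfy2 (0.96), Osm, Scarb2, Neu1 and Man1c1, and Rcn2 (0.92), Gnl1, Tmed4, Btbd19 and Cd99l2. These lists depended on the groups used. Without the 2 smallest groups, a step chosen after seeing the data, 7 of the 30 genes were named again: Xylt1, Sult2b1, Specc1, Btg2, Glul, Wdfy2 and Gnl1. The gene most like Nr4a2 was then Thy1 (0.98). Of the members, Nr4a1 was then at -0.82 with Nr4a2 and 0.89 with Egr1, Nr4a2 with Egr1 went from -0.38 to -0.82, and Nr4a3 with Egr2 turned from -0.12 to 0.59.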

How the data were processed

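Raw gene, antibody and contig matrices were deposited for each day, and their values are whole UMI counts, not normalized. Per the submitters' processing notes, bcl2fastq 2.20, Cell Ranger 4.0.0, STAR 2.7.5c, Seurat and R 4.1.2 were named with build mm10; no role is given for each. The matrices hold unfiltered barcodes, so barcodes were filtered here. Members, lists and rules were chosen with earlier results of these data known. Counts were summed per group, scaled to CPM and compared as log2 ratios with exact Poisson intervals (Python 3.11.15, numpy 2.4.6, scipy 1.17.1, pandas 2.3.3, matplotlib 3.10.9); the code was tested on simulated counts. State genes and shares were read after thinning to 5000 UMIs. No doublet caller was run; 237 and 245 barcodes with both Cd4 and Cd8 UMIs were left out of the classes. Named beyond the members were the 5 genes most like each, the 8 leading genes beside Nr4a1, Egr1 and Egr2, and list genes past 2-fold, at most 6 per list. Alternatives covered depth, scaling, myeloid RNA, cycling cells, class, thinning and each contig set; classes by antibody tag held 0 and 6 CD4 barcodes and say little.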

Additional observations from a re-analysis of the deposited data

Results flagged for a closer look

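Nr4a3 in CD8 T barcodes of clonotypes of 3 or more against 1 differed in direction between the days. At day 13 the log2 ratio was -0.39 (interval -0.56 to -0.23), lower in 4 of 4 contig sets, at 68.8 against 90.3 CPM. At day 19 it was 0.26 (0.07 to 0.44), higher in 4 of 4 sets, at 91.5 against 76.6 CPM. Neither reached 2-fold. Over barcodes under 0.1% myeloid RNA the ratios were -0.44, lower in 4 of 4 sets, and 0.20 (-0.03 to 0.43), higher in 2 of 4. One clonotype of 71 barcodes carried most of the day 19 value: it held 159 CPM of Nr4a3, and without it the ratio was 0.02 (-0.19 to 0.23), at 77.8 against 76.6 CPM, a step chosen after seeing the data. Of the 5 clonotypes of 10 or more barcodes at day 19, 2 lay above the level of single clonotypes. At day 13 the ratio was -0.33 without the largest clonotype. The difference between the days was not tested, since each day is 1 sample, and among 30 pairs of member and comparison looked at it is the only one in which all 4 sets of each day lay on opposite sides. Egr1 in the same comparison also changed direction, with its day 19 sets divided: -0.51 (-0.63 to -0.39) at day 13, lower in 4 of 4, and 0.30 (0.15 to 0.44) at day 19, higher in 2 of 4. Without the largest clonotype its day 19 value was 0.31 (0.15 to 0.46). No contig set stood apart from the other 3 of its day in 24 groups of 4 sets, a check in which chance flags about 1 in 20.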

How the results depend on the processing

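No paired analysis was possible because each day has 1 gene expression sample. Of 165 recomputed counts of called members, 132 stayed within 1.5 times the reported count and 33 did not. The 33 include the days in CD4 T barcodes by antibody tags, which could not be compared. Of 978 recomputed log2 ratios 926 kept their sign. The 1 called value to turn was Nr4a1 between the classes by antibody tags (0.13, with 6 CD4 barcodes). By antibody tags 2 members were called between days in CD8, 1 between the classes, 1 for Pdcd1 and 1 for clone size. The days could not be compared in CD4 by antibody tags, since day 13 held 0 such barcodes. For the days in CD4 T barcodes, where 2 were reported, the count was 0 over barcodes of at least 10000 UMIs, 1 without the deepest 8%, with 2 UMIs for a class, in or out of a contig set, under 0.2% or 0.1% myeloid RNA and without cycling barcodes, and 1 to 2 when each contig set was left out; Egr1 stayed past 2-fold there (-1.39 to -1.13) and Egr3 was called in 1 of these 8. Centred on the median gene, 3 members were called between the classes and 3 between Cd3 barcodes and those without. For Foxp3, where 0 were reported, the mean of CPM per barcode gave 2, under 0.2% and under 0.1% myeloid RNA gave 2 each, and another thinning gave 1 (Egr1, -1.02). At least 10000 UMIs gave 1 for Pdcd1 (Egr2) and 1 for clone size (Egr2), and at least 1000 UMIs gave 1 for clone size (Egr3). The Nr4a2 call between the Tcf7 and Havcr2 states was lost in 4 of 22 alternatives: in or out of a contig set (just short of the threshold), with state genes unthinned (0.87) and with another thinning (0.88), each leaving 0, and by antibody tags (0.97), where Egr1 (-1.69) was called in its place. Against barcodes without Cd3, the mean of CPM gave 2 and under 0.2% myeloid RNA gave 3. Without thinning the shares were 62.0%, 60.4%, 40.5%, 46.8%, 5.48% and 2.21% for Nr4a1, Nr4a2, Nr4a3, Egr1, Egr2 and Egr3 in CD8 T barcodes and 76.4%, 39.4%, 45.0%, 63.6%, 16.1% and 4.40% in CD4 T barcodes. The cause of these shifts was not tested, except that Egr3 lies near the minimum of 100 UMIs. Depth limits Egr3 above all: 139 UMIs in CD8 and 104 in CD4 T barcodes.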

Other observations

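In CD4 T barcodes of day 19 Nr4a2 was highest in clonotypes of 10 or more but followed no order below that size. It stood at 77.8 CPM in 277 CD4 T barcodes of clonotypes of 1, 123 in 66 of clonotypes of 2, 102 in 133 of clonotypes of 3 to 9 and 145 in 80 of clonotypes of 10 or more. Under 0.1% myeloid RNA these levels were 76.9, 88.4, 67.7 and 177 CPM, from 132, 37, 44 and 25 barcodes. Of the 3 clonotypes with 10 or more CD4 T barcodes, 2 lay above the level of clonotypes of 1, and the largest, of 33 barcodes, lay below it at 67.2 CPM. The same size group also held clonotypes with 9, 8 and 7 barcodes in the CD4 class. These stood at 199, 192 and 146 CPM of Nr4a2, each above the level of clonotypes of 1. Over both days, in CD4 T barcodes with neither Foxp3 nor Pdcd1, clonotypes of 3 or more were at 144 CPM against 66.7 in those of 1 (log2 ratio 1.11, interval 0.78 to 1.43). No share over all genes was computed for it. Days weigh unequally by size: in the whole CD4 class clonotypes of 1 held 452 and 277 barcodes at days 13 and 19, those of 3 to 9 held 23 and 133. Nr4a2 in that class was 71.0 and 95.7 CPM on these days, and the part of the day was not tested. Egr1 in CD4 T barcodes of day 19 was 412, 156, 269 and 364 CPM by the same sizes, and 311, 111, 67.7 and 145 CPM under 0.1% myeloid RNA. It was highest in clonotypes of 1 in both.

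Genes beside Nr4a2 and Nr4a3 in CD8 T barcodes lie outside the rule for named genes and were chosen after their values were seen. Beside Nr4a2 (1810 barcodes with, 2094 without), the chemokine genes Ccl3 (116 against 37.3 CPM, log2 ratio 1.64) and Ccl4 (729 against 242 CPM, 1.59), the cytokine gene Csf1 (1.56) and Havcr2 (40.8 against 15.5 CPM, 1.40) were among the leading genes. Beside Nr4a3 (1062 with, 2842 without), Fscn1 (31.8 against 2.96 CPM, 3.43), a gene of mature dendritic cells, led on 169 and 42 UMIs. Mature dendritic-like barcodes are also the group in which Nr4a3 was highest. The part of dendritic RNA in CD8 T barcodes was not tested.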
